A study of Mus musculus with 25 samples.

Results

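The genes described here are 10 negative regulators and response genes of fibroblast growth factor (FGF) and ERK signalling in mouse embryonic stem cells (mESCs), out of 35662 genes in the mESC RNA table and 24062 in the embryo RNA table. They are Klhl13, Dusp9, Dusp4, Dusp6, Spry2, Spry4, Spred1, Etv4, Etv5 and Egr1, matched by gene symbol, and all 10 were present and passed the filter on low counts in both tables. They were picked by their place in the pathway and with the difference between Dot1L knockout (KO) and wild-type (WT) mESCs already known, above all that of Klhl13, so their mESC differences are described without p-values, and the number called is given only beside the share of all genes. The mESCs were of the v6.5 strain and untreated, with 3 RNA libraries of wild type cells and 2 of Dot1L KO cells, and called H3K79me2 and H3K79me3 peaks from 2 WT and 2 KO libraries per mark. The embryos were wild type 8-cell embryos from B6D2F1 x Cast/EiJ, in pools of 30 to 35, collected at 56 hours after fertilization, with 2 pools given DMSO and 2 given the Dot1L inhibitor SGC0946. The labels do not give the deleted part of Dot1L or the number of KO clones, and they do not say that replicates were separate cultures, so p-values measure the spread between these samples only. In bulk RNA, fewer cells expressing a gene and less RNA per cell cannot be told apart.

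FGF ligands bind receptor tyrosine kinases that activate RAS, RAF, MEK and ERK in turn, and in mESCs FGF4 acting through ERK moves cells out of the naive state toward differentiation. ERK activity switches on some of its own brakes. DUSP4, DUSP6 and DUSP9 are phosphatases that remove phosphate from ERK and related kinases. Sprouty (SPRY2, SPRY4) and Spred proteins dampen signalling between the receptor and RAF. ETV4, ETV5 and EGR1 are transcription factors whose genes respond to FGF and ERK, so their RNA is widely used as a readout of the pathway. KLHL13 is a substrate adaptor of the CUL3 ubiquitin ligase, and Klhl13 and Dusp9 are X-linked genes that are known to affect ERK signalling in mESCs. DOT1L is the methyltransferase that places H3K79me2 and H3K79me3, marks found over the bodies of transcribed genes.

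RNA libraries held 26856146 to 33750470 estimated counts in mESCs and 24950199 to 32479590 counts in embryos. Dot1l itself had 104.4, 96.8 and 99.1 CPM (a count relative to the total of its library, after TMM scaling) in the WT libraries and 81.4 and 71.6 CPM in the KO libraries, so RNA from the gene was still counted in the KO. Every mESC marker looked for (Pou5f1, Nanog, Sox2, Esrrb, Zfp42, Klf4 and Tfcp2l1) averaged 1 CPM or more, with a summed level of 2940 to 2990 CPM in WT and 2540 to 2690 CPM in KO libraries, and 3 of the 7 were called lower and 1 higher. Of 7 primitive endoderm markers, 6 were tested and 4 were higher in KO by edgeR's quasi-likelihood test (Benjamini-Hochberg adjusted p under 0.05), beside 22.3% of all genes, with a summed level of 18.7 to 20 CPM in WT and 33.7 to 35.6 CPM in KO. Of 8 feeder fibroblast markers, 7 were tested and 4 were higher, with a summed level of 161 to 204 CPM in WT and 209 to 260 CPM in KO. Of 6 trophectoderm markers, 4 were called higher and 1 lower, at a summed 44.9 to 47.6 CPM in WT and 59.6 to 63.2 CPM in KO, and of 4 primed epiblast markers 3 were called lower, at 324 to 330 CPM and 242 to 256 CPM. None of the markers of these lists was at 0 in every library, and their part in the differences below was not tested. In embryos, all 6 markers of the 8-cell list averaged 1 CPM or more, while 5 of 6 cumulus cell markers were under it. The cumulus list still summed to 41 to 44.8 CPM with DMSO and 37.4 to 38.4 CPM with the inhibitor. The 8-cell markers summed to 3190 to 3430 CPM with DMSO and 2390 to 3020 CPM with the inhibitor. The mESC markers summed to 1630 to 1750 CPM and 1050 to 1250 CPM. Summed primitive endoderm, trophectoderm and primed epiblast levels overlapped between the embryo groups. No marker was called in embryos, and their part in the embryo values was not tested.

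Klhl13 lies at chrX:23219271-23365161 in GRCm38, the same assembly as mm10. Its level was 1067, 1103 and 1058 CPM in the WT mESC libraries and 99.4 and 100.4 CPM in the KO libraries. The replicates of each group lay close together and the groups were far apart. The WT mean was 1076 ± 23.8 CPM (SD, n = 3) and the KO mean 99.9 ± 0.70 CPM (SD, n = 2), a 10.8-fold lower level and a log2 fold change of -3.43 (SE 0.04). Among the 19561 genes tested, that log2 fold change ranked 12 from the lowest. 

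The most upstream start of Klhl13 is shown beside those of Spry2 and Etv5 because H3K79 methylation was called differently at the 3 places. The sequences are RefSeq promoter windows of the GRCm38.p6 assembly, each from 250 bases before a transcript start to 50 after it, written 5′ to 3′ on the gene's own minus strand: chrX:23365033-23365332 for Klhl13, chr14:105896770-105897069 for Spry2 and chr16:22439521-22439820 for Etv5. Capitals mark CCGGAA or its reverse complement, the core to which ETS factors such as ETV4 and ETV5 bind.
Klhl13: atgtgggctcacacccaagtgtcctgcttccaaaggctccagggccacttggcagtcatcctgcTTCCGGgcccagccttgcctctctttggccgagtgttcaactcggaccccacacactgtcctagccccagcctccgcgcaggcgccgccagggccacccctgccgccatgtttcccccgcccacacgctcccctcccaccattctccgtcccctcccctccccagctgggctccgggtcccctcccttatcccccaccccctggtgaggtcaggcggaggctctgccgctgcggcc
Spry2: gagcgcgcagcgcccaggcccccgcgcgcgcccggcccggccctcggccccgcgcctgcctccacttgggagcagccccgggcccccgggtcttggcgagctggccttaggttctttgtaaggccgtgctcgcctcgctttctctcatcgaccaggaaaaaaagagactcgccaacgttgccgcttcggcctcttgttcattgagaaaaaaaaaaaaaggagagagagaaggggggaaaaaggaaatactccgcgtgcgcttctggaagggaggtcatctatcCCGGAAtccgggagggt
Etv5: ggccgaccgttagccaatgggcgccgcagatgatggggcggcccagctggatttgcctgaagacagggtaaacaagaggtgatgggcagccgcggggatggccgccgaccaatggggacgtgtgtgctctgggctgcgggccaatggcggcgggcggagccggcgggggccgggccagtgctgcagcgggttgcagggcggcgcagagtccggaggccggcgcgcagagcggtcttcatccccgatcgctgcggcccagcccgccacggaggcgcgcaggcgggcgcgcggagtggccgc
No H3K79me2 or H3K79me3 peak of either WT library touched the Klhl13 window, and the nearest H3K79me2 peak was 46755 bases away in WT replicate 1 and 29342 bases away in WT replicate 2. The nearest H3K79me3 peak lay 170474 and 230390 bases away. Klhl13 has 5 windows, with starts further into the gene at chrX:23285559 and chrX:23266802 among them. No peak of either mark touched any of the 5, and which start was used in WT cells was not tested. In the Spry2 window, H3K79me2 peaks covered 204 and 34 of 300 bases in WT replicates 1 and 2, and an H3K79me3 peak covered 55 bases in replicate 1 and 0 in replicate 2. In the Etv5 window, H3K79me2 peaks covered 69 and 77 bases and H3K79me3 peaks 8 bases in each library. The Dusp6 and Spred1 windows, not shown, also held no peak of either mark. Their nearest H3K79me2 peaks in WT replicates 1 and 2 were 703 and 1017 bases away at Dusp6, and 435 and 1186 bases away at Spred1.

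Promoter windows were at hand for 5 of the 10 genes, 10 windows in all. The ETS core CCGGAA, searched on both strands, occurred in 14.9% of all 32851 windows of this length. It was found once in the Spry2 window and once in each of the overlapping Klhl13 windows at its upstream starts, and not in the windows of Dusp6, Etv5 and Spred1. The SP core GGGCGG, present in 35.7% of all windows, occurred 3 times in the first Etv5 window, 3 times in the Spred1 window and once in the Klhl13 window shown. The CRE core TGACGT (7.51% of all windows), the TATA box TATAAA (13.6%) and the CArG box bound by SRF (1.63%) were found in none of the 10 windows. These matches are descriptions of letters only.

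Dusp9, the other X-linked gene of the group, encodes a mainly cytoplasmic phosphatase of ERK and lies at chrX:73639389-73643514. Its level was 205, 193 and 198 CPM in WT and 118 and 117 CPM in KO mESCs. The groups did not overlap, and the KO mean of 118 ± 1.02 CPM (SD, n = 2) stood 1.69-fold below the WT mean of 199 ± 6.34 CPM (SD, n = 3). Its log2 fold change was -0.76 (SE 0.04).

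The other DUSP genes were higher in KO mESCs. Dusp4, whose product is a nuclear phosphatase of ERK, had 10.8, 11 and 9.42 CPM in WT and 21.3 and 22.5 CPM in KO libraries, and its log2 fold change was 1.07 (SE 0.08). Dusp6, whose product is an ERK-specific phosphatase of the cytoplasm, had 29.3, 29.4 and 30.3 CPM in WT and 43.7 and 51.9 CPM in KO libraries, and its log2 fold change was 0.69 (SE 0.07). Neither gene's groups overlapped, and the spread between the 2 KO libraries was wider for Dusp6 (SD 5.82 CPM) than for Dusp4 (SD 0.88 CPM).

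Among the Sprouty and Spred genes, Spry4 differed most. Its level was 95.3, 82.7 and 86.0 CPM in WT and 217 and 246 CPM in KO, so the means were 88.0 ± 6.51 CPM (SD, n = 3) and 232 ± 20.4 CPM (SD, n = 2), a 2.64-fold higher level and a log2 fold change of 1.40 (SE 0.06). Spred1 had 73.2, 71.3 and 69.0 CPM in WT and 114.3 and 122.6 CPM in KO libraries, and its log2 fold change was 0.74 (SE 0.05). Spry2 differed least of these 3, with 60.4, 59.0 and 54.7 CPM in WT and 65.1 and 73.2 CPM in KO. The groups did not overlap, though the lowest KO library lay near the highest WT library, and the log2 fold change was 0.25 (SE 0.06).

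The response genes did not share 1 direction. Etv4, which encodes an ETS factor of the PEA3 group, had 38.1, 36.1 and 37.6 CPM in WT and 70.6 and 72.5 CPM in KO libraries, and its log2 fold change was 0.94 (SE 0.05). Egr1, a zinc finger factor and immediate early gene, had 59.0, 46.1 and 62.7 CPM in WT and 114.6 and 117.7 CPM in KO libraries, and its log2 fold change was 1.06 (SE 0.09). Etv5, a close relative of Etv4, had 417, 414 and 414 CPM in WT and 366 and 386 CPM in KO. Its 3 WT libraries were nearly equal and both KO libraries lay below them, with a log2 fold change of -0.14 (SE 0.04), the smallest difference of the 10 genes. With upper-quartile scaling, which moved the median of all genes by 0.07 on the log2 scale, Etv5 was not called.

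**Figure D1:**
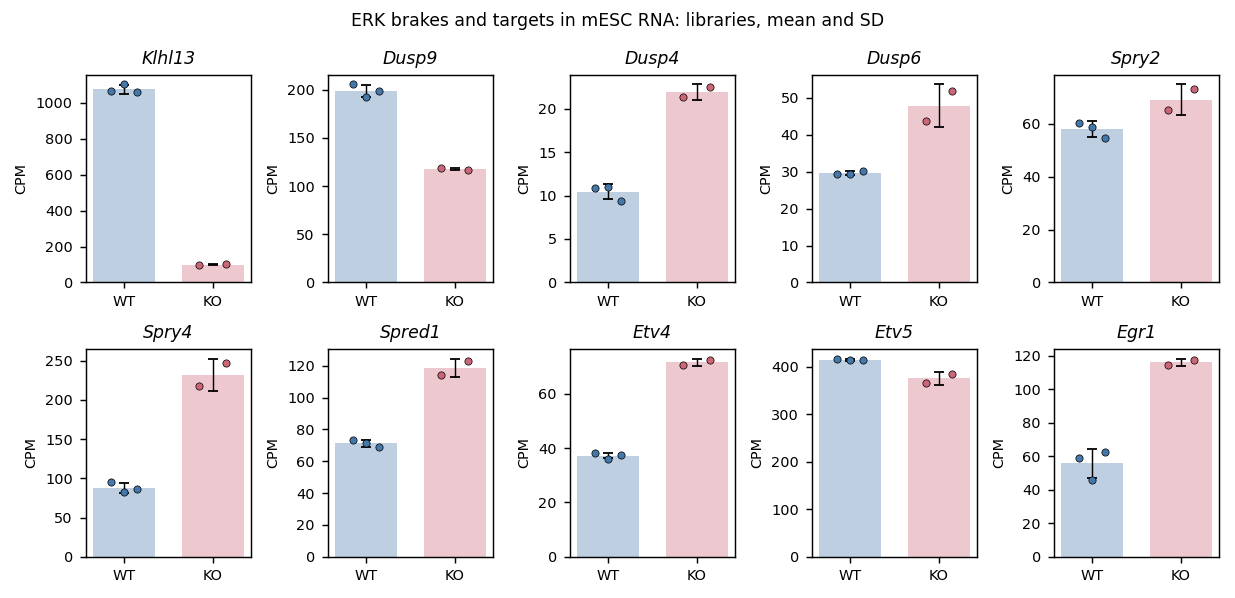
Level of each gene in CPM (vertical axes, from 0) in 3 WT and 2 Dot1L KO mESC libraries. Points are libraries, bars group means and whiskers SD. No gene's groups overlap: Klhl13, Dusp9 and Etv5 are lower in KO and the other 7 genes are higher.

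In all, 7 genes were higher in KO and 3 were lower, and all 10 were called at an adjusted p under 0.05 (edgeR, Benjamini-Hochberg), beside 43.7% of all 19561 genes tested (22.3% higher and 21.4% lower). Since the genes were chosen on this contrast, nothing is read from that count. All 10 had groups that did not overlap, beside 62.5% of all genes (31.9% higher and 30.6% lower). Their median log2 fold change was 0.71, beside 0.00 over all genes tested. The log2 fold change was at least 1 for Spry4, Dusp4 and Egr1, beside 4.91% of all genes, and -1 or less for Klhl13, beside 3.37%.

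Klhl13 and Dusp9 lie on a chromosome whose genes were mostly lower in the KO. Of 737 X-linked genes tested, 85.3% had a negative log2 fold change and 60.4% were called lower by edgeR (adjusted p under 0.05), beside 21.4% of all genes, and the median was -0.57. Among the 596 that averaged 1 CPM or more, the share lower was 88.3% and the median was -0.65, while the 15286 autosomal genes at that level had a median of 0.01 and a range from -0.56 to 0.86 between their 5th and 95th percentiles. Of those 596 X-linked genes, 235 (39.4%) had a lower log2 fold change than Dusp9, so its difference lay near the middle of the chromosome's. Only 1 of them had a lower log2 fold change than Klhl13. The Y-linked genes Ddx3y and Uty were also lower, Ddx3y at 88.6 to 90.0 CPM in WT and 32.3 and 38.1 CPM in KO, and Uty at 94.1 to 97.8 CPM and 46.6 and 48.6 CPM. The Y-linked genes Eif2s3y and Kdm5d differed less. Eif2s3y had 66.7 to 74.9 CPM in WT and 62.3 and 62.8 CPM in KO, and Kdm5d 30.55 to 31.73 CPM and 27.53 and 28.15 CPM. The part of the chromosome-wide difference in the values of Klhl13 and Dusp9 was not tested.

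**Figure D2:**
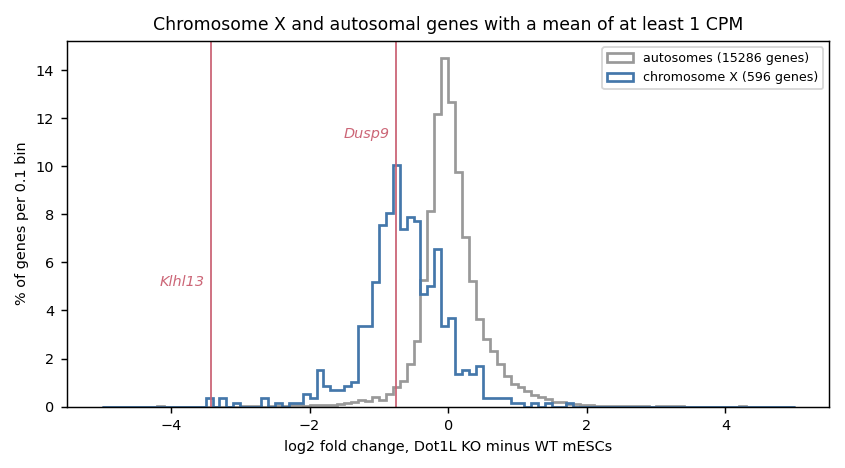
Share of genes (%, vertical axis) by log2 fold change, Dot1L KO minus WT mESCs (horizontal axis, bins of 0.1), for 596 X-linked and 15286 autosomal genes that averaged 1 CPM or more. The vertical line for Dusp9 (-0.76) falls within the bulk of X-linked genes, and that for Klhl13 (-3.43) at their lower edge.

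Genes beside the 2 X-linked members were measured too. Within 500 kb of Klhl13, Wdr44, which encodes a WD repeat protein 327 kb away, was the only gene that averaged 1 CPM or more. It fell by 0.72 on the log2 scale (edgeR adjusted p = 2.42e-07), with WT at 58.9 ± 1.85 CPM (SD, n = 3) and KO at 35.9 ± 1.63 CPM (SD, n = 2). Within 500 kb of Dusp9 there were 29 such genes, of which Bgn and L1cam had positive log2 fold changes and the others negative ones. Closest to it, Pnck (12.5 kb away) had a log2 fold change of -0.66 (edgeR adjusted p = 0.0121), Slc6a8 (29.6 kb), a creatine transporter gene, one of -0.68 (adjusted p = 2.19e-07) and Bcap31 (42.7 kb) one of -0.92 (adjusted p = 8.05e-09). These neighbours' values bracket the -0.76 of Dusp9. The lowest of the 29 were Gm18336, Xlr5b and Xlr3b, with log2 fold changes of -1.87, -1.82 and -1.82. Members of the Xlr family are near-identical copies, so their counts are uncertain.

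H3K79 methylation in WT cells did not enter the choice of the genes. A gene was taken as marked when a region holding peaks of both WT libraries overlapped its body by at least 1 base. For H3K79me2, 8 of the 10 genes were marked, beside 42.5% of the 18589 tested genes with a position, and the exceptions were Klhl13 and Egr1. For H3K79me3, 5 of 10 were marked (Dusp9, Dusp4, Spry2, Spry4 and Etv5), beside 10.3% of genes. With at least 10% of the body covered, 8 genes carried H3K79me2, beside 31.4% of genes, and 3 carried H3K79me3 (Dusp9, Spry2 and Spry4), beside 3.94%. These shares are over genes of all RNA levels. The WT level of the 10 genes was above that of 49.9% (Dusp4) to 99.6% (Klhl13) of tested genes. Whether the group differs from genes of like RNA level was not tested. Both KO libraries of each mark had 0 peaks over any of the 10 genes. The KO lists held 12 and 16 H3K79me2 peaks and 178 and 328 H3K79me3 peaks in all, against 64084 and 66834, and 7338 and 19800, in WT.

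The Sprouty genes were covered almost from end to end. Regions of both WT libraries covered 100% of Spry2 (chr14:105891947-105896819) with H3K79me2 and 83.1% with H3K79me3, and 98.7% and 39.4% of Spry4 on chromosome 18. The median cover was 24.0% for H3K79me2 and 5.85% for H3K79me3 among marked genes. The highest fold enrichment that the authors gave an H3K79me2 peak was 14.7 in WT replicate 1 and 13.4 in replicate 2 at Spry4, and 11 and 9.89 at Spry2. Spry4 and Spry2 thus share dense cover in WT cells, while their log2 fold changes in KO were 1.40 and 0.25.

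Etv5 (chr16:22381313-22439570) was covered by H3K79me2 over 71.9% of its body, in 27 and 30 separate peaks, with highest enrichments of 11.3 and 11.6. Spred1 (chr2:117121071-117182279) had 42.6% cover by 28 and 31 peaks with highest enrichments of 8.36 and 6.89, and no H3K79me3 peak. In this gene of 61.2 kb, the H3K79me2 peaks lay between 0.435 and 37.3 kb from the start in WT replicate 1. In WT replicate 2 they lay between 1.19 and 40.3 kb from it. Etv4 (chr11:101769747-101785310) had 38.2% cover with highest enrichments of 6.57 and 6.72, and no H3K79me3 peak. These autosomal genes all carried H3K79me2, and their KO level was higher for Spred1 and Etv4 and slightly lower for Etv5. Whether the mark relates to the difference was not tested.

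Cover of the phosphatase genes was 76.6% for Dusp6 (chr10:99263231-99267489), 49.6% for Dusp9 and 17.9% for Dusp4 (chr8:34807610-34819894). The highest enrichment of an H3K79me2 peak in WT replicates 1 and 2 was 3.78 and 4.49 at Dusp6, 4.13 and 4.56 at Dusp9, and 4.13 and 4.70 at Dusp4, each below the values at the Sprouty, Spred and Etv genes. Dusp9 also carried H3K79me3 over 29.5% of its body and Dusp4 over 5.30%, while Dusp6 had 2 H3K79me3 peaks in WT replicate 1 and none in replicate 2.

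Klhl13 had almost no called peak, beside its many counts in WT cells. Each WT library had 1 H3K79me2 peak in the 146 kb gene, of 339 bases in replicate 1 and 246 bases in replicate 2, at different places and with enrichments of 2.59 and 3.06, and no H3K79me3 peak. Of the 62 other genes with a position and at least as many CPM in WT as Klhl13, not scaled for transcript length, 57 (91.9%) were marked by H3K79me2 and 55 (88.7%) by H3K79me3. Among 116 other X-linked genes with at least 100 CPM in WT, 104 (89.7%) were marked by H3K79me2 and 45 (38.8%) by H3K79me3. Among all tested X-linked genes the shares were 33.1% for H3K79me2 and 8.41% for H3K79me3. Egr1, on chromosome 18, had no H3K79me2 peak in either WT library and 2 H3K79me3 peaks in replicate 1 only. The absence of a called peak does not give the level of the mark, since the lists hold only regions past the authors' threshold and no read counts.

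**Figure D3:**
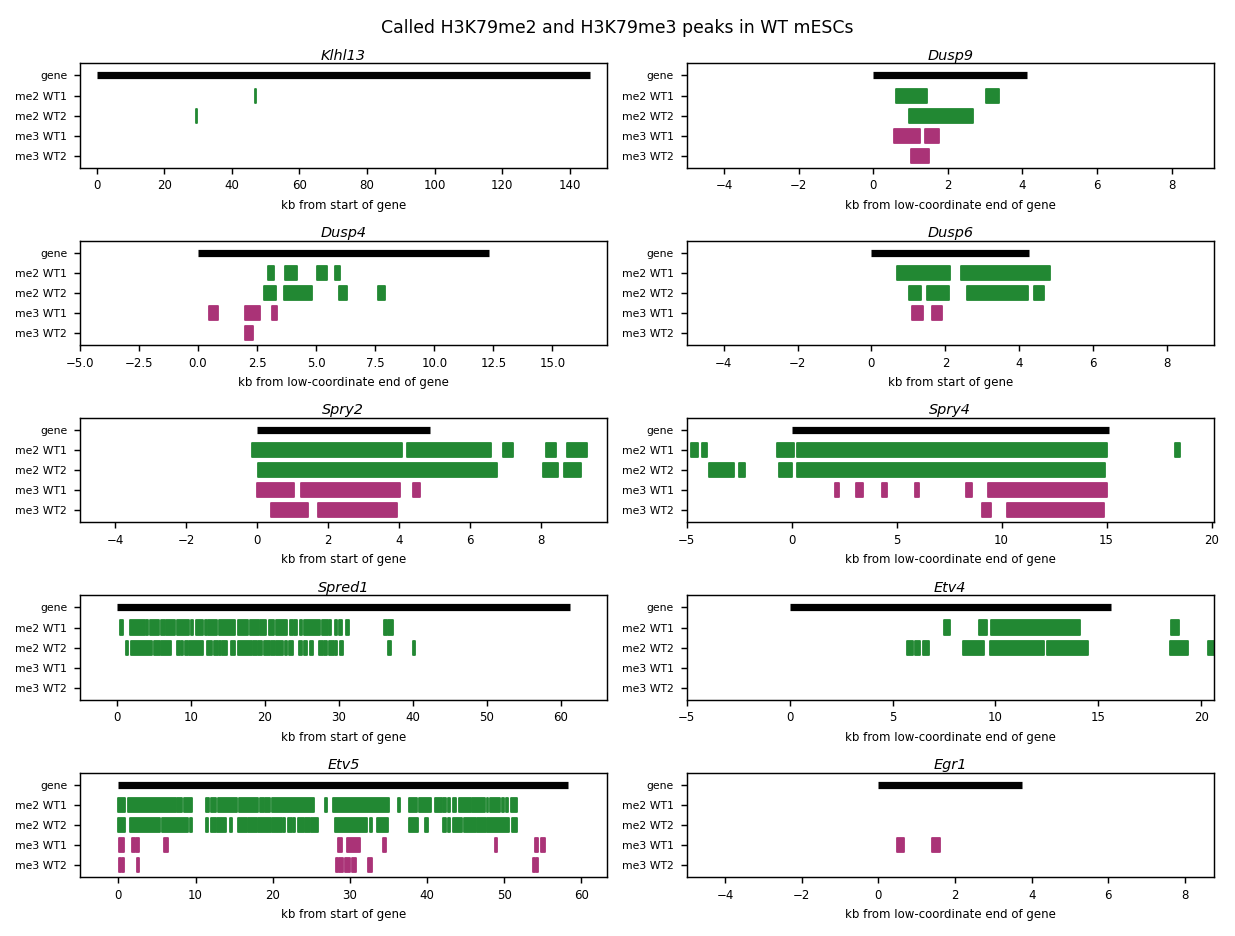
Called H3K79me2 (green) and H3K79me3 (purple) peaks of 2 WT mESC libraries per mark over and near each gene, in kb from the gene's start or, where strand was not used, from its low-coordinate end (horizontal axes); the black bar is the gene. H3K79me2 peaks cover Spry2 and Spry4 along their length in both libraries, while Klhl13 has 1 short H3K79me2 peak per library at different places and Egr1 has no H3K79me2 peak.

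The rest of the pathway was described with 76 further genes in 5 lists, of which 73 were tested in mESCs and 46 (63.0%) were called by edgeR at an adjusted p under 0.05, beside 43.7% of all genes. Of those, 21 were higher and 25 lower. The lists were chosen with earlier results of these data known, so nothing is read from the mESC shares called, here or below. At the receptor, 12 of 16 ligand, receptor and adaptor genes were called, 4 higher and 8 lower, with a median log2 fold change of -0.12. The receptor genes moved in both directions: Fgfr2 fell from 20.6 ± 1.04 to 5.58 ± 0.58 CPM (log2 fold change -1.88, edgeR adjusted p = 6.10e-09), while Fgfr3 rose from 3.65 ± 0.42 to 8.81 ± 2.93 CPM (1.27, adjusted p = 9.76e-05) and Fgfr4 from 1.72 ± 0.43 to 4.34 ± 1.21 CPM (1.34, adjusted p = 0.000316). Errors are SD with n = 3 for WT and n = 2 for KO, here and for the other genes of the lists. The docking protein gene Gab1 fell from 390 ± 3.04 to 176 ± 1.08 CPM (edgeR adjusted p = 2.87e-10), and the ligand gene Fgf5 from 2.93 ± 0.42 to 1.84 ± 0.57 CPM (adjusted p = 0.0238). The adaptor gene Shc1 rose from 70.4 ± 1.61 to 109 ± 11.1 CPM (edgeR adjusted p = 2.08e-06).

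Of 18 genes of RAS proteins and the kinases below them, 12 were called, 4 higher and 8 lower, with a median log2 fold change of -0.09. Mras fell from 21.6 to 7.77 CPM (log2 fold change -1.47, edgeR adjusted p = 8.72e-08), and its relative Rras rose from 5.17 to 12.0 CPM (1.22, adjusted p = 5.03e-06). The X-linked kinase genes Rps6ka3 and Araf fell with log2 fold changes of -1.07 and -0.73 (edgeR adjusted p = 2.24e-09 and 1.59e-07). Mapk3, which encodes ERK1, rose from 46.4 to 59.8 CPM (0.36, edgeR adjusted p = 0.000119), and Rps6ka2, another kinase below ERK, rose by 0.31 on the log2 scale (adjusted p = 0.000423).

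Of 17 further genes tested for brakes on RAS, ERK or related kinases, 8 were called, 5 higher and 3 lower. The median log2 fold change of the 17 was 0.13. The share of 47.1% was near the 43.7% of all genes. Dusp1, which encodes an inducible nuclear phosphatase, rose from 41.7 ± 1.57 to 72.7 ± 7.23 CPM (log2 fold change 0.80, edgeR adjusted p = 3.40e-07). Dusp10 and the RAS GTPase-activating protein gene Rasa3 rose with log2 fold changes of 0.52 and 0.33 (edgeR adjusted p = 0.0169 and 0.00118). Dusp14, Dusp16 and Rasa1 fell with log2 fold changes of -0.32, -0.31 and -0.24 (edgeR adjusted p = 0.0269, 0.000151 and 0.00165).

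A further list held response genes and also genes of transcription factors through which the pathway acts, such as Elk1 and Srf. Of its 15 tested genes, 10 were called, 7 higher and 3 lower, with a median log2 fold change of 0.55. Ier3, an immediate early gene, rose from 17.2 ± 0.46 to 56.6 ± 8.21 CPM (log2 fold change 1.72, edgeR adjusted p = 3.18e-09). The AP-1 genes Fos and Fosl1 rose with log2 fold changes of 1.26 and 1.35 (edgeR adjusted p = 3.11e-06 and 0.000914). Ccnd1, the cyclin D1 gene, fell from 163 ± 8.53 to 88.1 ± 5.04 CPM (edgeR adjusted p = 5.11e-08), and the factor genes Elk1, which is X-linked, and Srf fell by 0.85 and 0.34 on the log2 scale (adjusted p = 6.48e-08 and 0.00140).

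Of 7 genes around the CUL3 ligase in which KLHL13 works, 4 (57.1%) were called, 1 higher and 3 lower, beside 43.7% of all genes. The scaffold gene Cul3 fell from 228 ± 5.29 to 191 ± 15.0 CPM (log2 fold change -0.26, edgeR adjusted p = 0.000998), and the adaptor genes Klhl42 and Klhl21 fell with log2 fold changes of -0.37 and -0.17 (adjusted p = 0.00140 and 0.0222). Aurkb, a mitotic kinase that this ligase ubiquitinates, rose by 0.24 on the log2 scale (edgeR adjusted p = 0.000981). The largest of these log2 fold changes was -0.37, against -3.43 for Klhl13.

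In 8-cell embryos the inhibitor was compared with DMSO in samples that the choice of genes did not use. None of the 10 genes was called by edgeR, beside 0% of the 14351 genes tested, and 2 of 10 had an unadjusted p under 0.05 (edgeR), beside 8.15% of all genes. DESeq2 called 126 genes (0.878%) and none of the 5 of these genes for which it gave an adjusted p (Dusp6, Spry2, Spry4, Etv5 and Spred1). Leaving out 1 pool at a time gave 4 to 365 called genes by edgeR, the most without inhibitor replicate 2, and none of the 10 in any of these fits. Groups did not overlap for 6 of the 10 genes, 4 higher and 2 lower with the inhibitor, beside 39.2% of all genes (20.1% higher and 19.2% lower). The common biological coefficient of variation was 0.44 in embryos and 0.05 in mESCs, so smaller differences were detectable in mESCs.

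Klhl13 was near the floor of detection in embryos. It had 35 and 27 reads with DMSO and 24 and 20 with the inhibitor, that is 1.29, 1.02, 0.91 and 0.61 CPM, and its log2 fold change was -0.60 (SE 1.39, edgeR adjusted p = 0.969). Both inhibitor pools lay below both DMSO pools, within an error larger than the difference. Dusp9 had 4.13 and 4.56 CPM with DMSO and 7.62 and 4.75 CPM with the inhibitor, a log2 fold change of 0.51 (SE 0.52, edgeR adjusted p = 0.877). Its log2 fold change was thus positive, where the mESC value was -0.76, and the lower inhibitor pool lay close to the higher DMSO pool. The X-linked genes as a whole had a median log2 fold change of 0.09 in embryos.

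Dusp4 had 3.50 and 3.96 CPM with DMSO and 9 and 5.23 CPM with the inhibitor (log2 fold change 0.93, SE 0.52, edgeR adjusted p = 0.709). Dusp6 had 12.3 and 6.97 CPM with DMSO and 7.93 and 14.0 CPM with the inhibitor (log2 fold change 0.19, SE 0.42, edgeR adjusted p = 0.968). The 2 inhibitor pools differed from each other about as much as the groups did for Dusp4, and the groups overlapped for Dusp6.

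Spry2 had 52.1 and 66.3 CPM with DMSO and 42.6 and 59.7 CPM with the inhibitor, and Spry4 had 16.6 and 27.1 CPM against 19.1 and 24.0 CPM. The groups overlapped for both, with log2 fold changes of -0.21 (SE 0.22) and -0.02 (SE 0.31) and edgeR adjusted p-values of 0.886 and 0.999. Spred1 had 36.8 and 42.3 CPM with DMSO and 63.0 and 48.6 CPM with the inhibitor, so both inhibitor pools were higher, with a log2 fold change of 0.50 (SE 0.22, edgeR unadjusted p = 0.0404, adjusted p = 0.581).

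Etv5 had 40.4 and 43.8 CPM with DMSO and 20.6 and 35.1 CPM with the inhibitor, so both inhibitor pools were lower, with a log2 fold change of -0.59 (SE 0.27, edgeR unadjusted p = 0.0466, adjusted p = 0.604). Etv4 had 1.25 and 0.64 CPM with DMSO and 1.03 and 1.67 CPM with the inhibitor, and its groups overlapped (log2 fold change 0.51, SE 1.28, edgeR adjusted p = 0.971). Egr1 had 8 and 10 reads with DMSO and 28 and 59 with the inhibitor, or 0.29, 0.38, 1.07 and 1.79 CPM, a log2 fold change of 2.08 (SE 1.49, edgeR adjusted p = 0.796). Both inhibitor pools of Egr1 were above both DMSO pools, and at these low counts the difference did not pass the test.

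**Figure D4:**
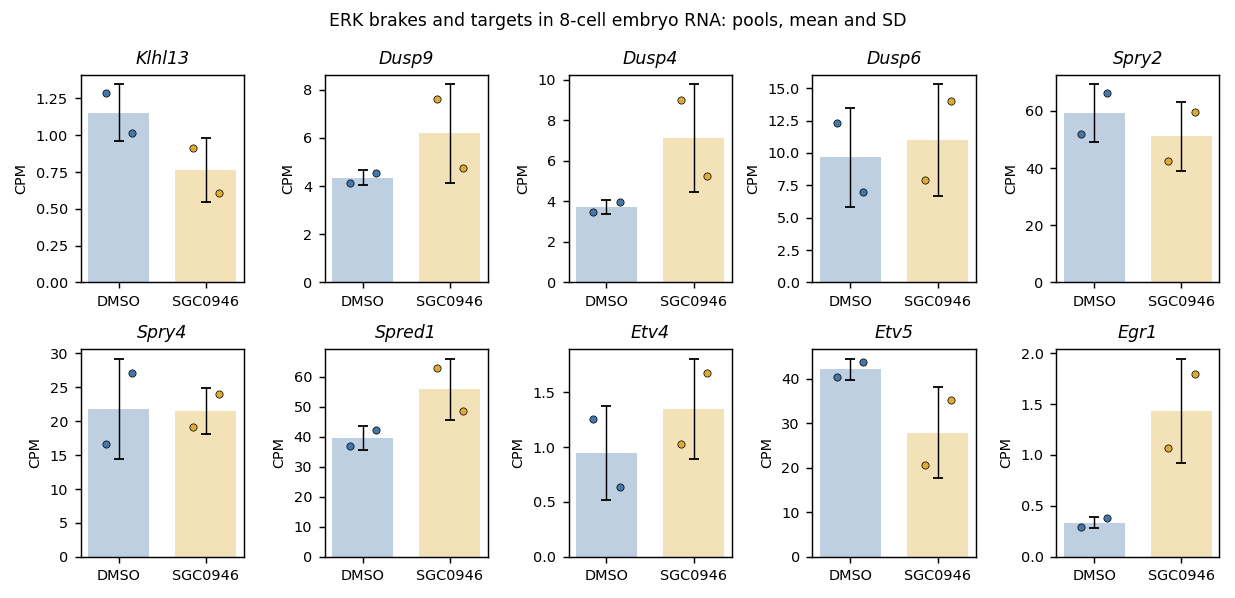
Level of each gene in CPM (vertical axes, from 0) in 2 pools of 8-cell embryos given DMSO and 2 given SGC0946. Points are pools, bars group means and whiskers SD. Dusp9, Dusp4, Spred1 and Egr1 are higher and Klhl13 and Etv5 lower in both inhibitor pools than in both DMSO pools, and the other 4 genes overlap.

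The 2 experiments share no samples, and their log2 fold changes can be set side by side. Klhl13 had -3.43 in mESCs and -0.60 in embryos, where leaving out 1 pool gave -0.91 to -0.33, and Etv5 had -0.14 and -0.59 (-1.03 to -0.26). Dusp4 had 1.07 and 0.93 (0.49 to 1.27), Spred1 0.74 and 0.50 (0.30 to 0.67), Etv4 0.94 and 0.51 (0.11 to 1.07) and Egr1 1.06 and 2.08 (1.66 to 2.41). Dusp9 had -0.76 and 0.51 (0.13 to 0.81). The embryo sign of the remaining genes turned with the pool left out, so no direction is read from it: Dusp6 had 0.69 and 0.19 (-0.28 to 0.65), Spry2 0.25 and -0.21 (-0.47 to 0.02) and Spry4 1.40 and -0.02 (-0.33 to 0.38). The extremes came from leaving out an inhibitor pool for each gene but Etv4, Spry4 and, at its upper end, Dusp6, where they came from leaving out a DMSO pool. The difference between the experiments was not tested, since they differ in cell type, in the way Dot1L was targeted and in library preparation.

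**Figure D5:**
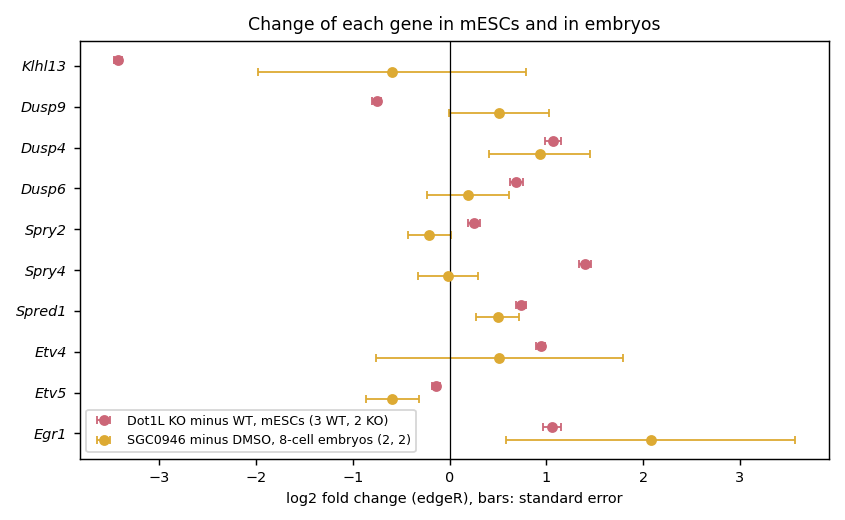
Log2 fold change of each gene (horizontal axis, points) with its standard error (bars) in mESCs, Dot1L KO minus WT, and in 8-cell embryos, SGC0946 minus DMSO. Standard errors in embryos are wider for each gene, and those of Klhl13, Etv4 and Egr1 exceed 1.

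Of the 76 further pathway genes, 69 were tested in embryos and none was called by edgeR, while 8 had an unadjusted p under 0.05, beside 8.15% of all genes, and these are named here after their values were seen. Gab1 had 91.0 CPM with DMSO and 58.4 CPM with the inhibitor, a log2 fold change of -0.64 (edgeR unadjusted p = 0.00466, adjusted p = 0.385). Fgf4 and Fgfr2 had log2 fold changes of -0.70 and -0.43, and Fgfr3 one of 0.79. In mESCs, the values of Gab1, Fgf4, Fgfr2 and Fgfr3 were -1.15, -0.65, -1.88 and 1.27. Among brakes, Spry1 had 1.79 CPM with DMSO and 6.92 CPM with the inhibitor (log2 fold change 1.95), where its mESC value was -0.08, and Dusp7 had a log2 fold change of 0.95 in embryos and 0.06 in mESCs. The other two, Map2k1 and Klhl22, had -0.59 and 0.74 in embryos and 0.13 and -0.11 in mESCs.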

How the data were processed

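The mESC table deposited by the authors holds estimated counts for each Ensembl gene. kallisto, and for some samples STAR and HTSeq, are named in the submitters' processing notes. Its 69 genes without a symbol held at most 0.0163% of counts and were left out. For embryos, the deposited values are whole counts by gene symbol, with STAR and HTSeq named in the submitters' processing notes. Strand setting and annotation are not given in the sources used here, so genes overlapping others are uncertain. Peaks were called per library, with Bowtie2, MACS2 and mm10 named in the submitters' processing notes. The deposited lists give each peak's fold enrichment (ratio), score, -log10 p and -log10 q, all the authors' own values.

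Estimated counts were rounded, filtered with filterByExpr, scaled by TMM and tested with edgeR 4.0.16 (quasi-likelihood F test, Benjamini-Hochberg) under R 4.3.3, over all genes and with a fit of its own for each of mESCs and embryos. CPM are on the TMM scale. Called genes had an adjusted p under 0.05, and SE is the log2 fold change divided by the root of F. DESeq2 1.42.0, other scalings, other filters, a replicate block and leaving out each library were alternatives, and for peaks 2 kb flanks, 10% cover, a -log10 q of at least 5, and single lists. Gene positions and promoter windows are RefSeq's for GRCm38.p6, and peaks and plots used Python 3.11.15. Named genes were the 10 members, up to 3 called genes per list and direction, genes within 500 kb of Klhl13 or Dusp9, the 3 genes most like Klhl13, and Dot1l. Markers, Y-linked genes, the extremes of gene families and embryo genes at an unadjusted p under 0.05 are named outside this rule, the last 2 kinds after their values were seen. Members and lists were chosen with earlier results of these data known. Replicate numbers are not said to pair samples. Deviations of same-numbered libraries from their group means correlated at -0.04 and -0.09 in mESCs and 0.07 in embryos. In a group of 2 libraries the deviations mirror each other, so these values cannot settle whether samples were paired. Input libraries were not used here.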

Additional observations from a re-analysis of the deposited data

How the results depend on the processing

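The mESC log2 fold changes of the 10 genes kept their direction under every alternative run, from -3.45 to -3.36 for Klhl13 and from 1.30 to 1.48 for Spry4, and Etv5 alone lost its call, with upper-quartile scaling. That scaling turned a split of 51.0% higher among all calls into 63.4% and the chromosome X median from -0.57 to -0.51. Leaving out 1 library gave X medians of -0.63 to -0.58. In embryos, where 0 genes were called, DESeq2 called 126, no filter gave 111, at least 10 counts in every library gave 23, and leaving out 1 pool gave 4 to 365. The replicate block, on numbers that are not said to pair the samples, gave 171 and 1 call in the wider lists (Gab1), and 8092 in mESCs against 8548. Leaving out 1 pool gave 0 to 2 calls in the wider lists (Gab1 and Myc without inhibitor replicate 2). A lone remaining sample is assumed to vary like the other groups. The sign turned for embryo Spry4 with the replicate block (0.013), and leaving out 1 pool gave -0.33 to 0.38 for Spry4 (positive without DMSO replicate 2 or inhibitor replicate 1, 0.14), -0.28 to 0.65 for Dusp6 (negative without DMSO replicate 2, -0.17, or inhibitor replicate 2) and -0.47 to 0.017 for Spry2 (positive without inhibitor replicate 1). The causes were not tested. H3K79me3 marked 3 genes at 10% cover, beside 3.94% of all tested genes with a position. By single lists it marked 7 genes in WT replicate 1, beside 26.8%, and 5 in WT replicate 2, beside 11.6%. H3K79me2 marked 7 genes at a -log10 q of at least 5, beside 33.8%. It marked 9 when each list could have its peak anywhere over the gene, beside 44.3%. That last rule was unplanned and was added once the peak values were known. Embryo depth limits Klhl13, Etv4 and Egr1 most, and the peak lists give no depth.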

Other observations

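The members stood at the edge of some of their gene families in mESCs. They were chosen with this contrast known, so nothing is read from their place. Of 31 Klhl genes tested, 6 rose and 7 fell, Klhl13 among them, by edgeR (adjusted p under 0.05), beside 22.3% and 21.4% of all genes, with a median log2 fold change of -0.04, and after Klhl13 (-3.43) the lowest was Klhl34 at -1.47 and the highest Klhl5 at 0.78. Of 23 Dusp genes, 10 rose and 5 fell, from Dusp27 at -2.81 to Dusp4 at 1.07, and Dusp9 had the next lowest value after Dusp27. Of the Etv genes, 2 of 6 rose and 2 fell, with Etv4 the highest at 0.94 and Etv6 the lowest at -0.30.

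By the distance between log2 CPM profiles over 5 mESC libraries, each centred on its mean, the genes most like Klhl13 among 16423 were Crisp1 on chromosome 17 (distance 0.245), which fell from 2.41 to 0.14 CPM, and the X-linked Gm19200 (0.436) and 4930519F16Rik (0.471), which fell from 19.8 to 2.04 and from 87.6 to 10.4 CPM. These profiles share libraries and scaling, and with 5 libraries in 2 groups the distance mostly compares the size of the group difference. Of the further pathway genes, 54 of 73 (74.0%) carried H3K79me2 in WT cells and 14 (19.2%) H3K79me3, beside 42.5% and 10.3% of all tested genes. Those shares were not matched for RNA level. All 7 genes around the CUL3 ligase carried H3K79me2, unlike Klhl13. Wdr44, the neighbour of Klhl13, had 20.9 and 30.4 CPM in embryos with DMSO and the inhibitor (log2 fold change 0.54, edgeR adjusted p = 0.672).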
